A study of Mus musculus with 15 samples.

Results

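The 10 genes described here are squamous cornified and desmosomal genes of the mouse: Ivl, Sprr1a and Sprr1b, the desmosomal cadherins Dsg2, Dsg3, Dsc2 and Dsc3, the plakophilin Pkp1, the 14-3-3 protein gene Sfn and the transcription factor gene Trp63. They were chosen by symbol, with earlier results of these data known, out of 78298 genes listed in the count tables. RNA with poly(A) tails was sequenced from mouse small intestinal organoids in 15 libraries, 3 for each of 5 conditions. The organoids came from wild-type adult female C57BL/6J mice, and all 5 conditions carried lentiviral transgenes under the weak, ubiquitously active L30 promoter and had been selected with antibiotics, so none was untransduced. Halo-NLS, the control, expressed the HaloTag with a nuclear localization signal (L30prom_V5-Halo-GDGAGLIN-NLS_IRES_Puro). SOX9-Halo_budding expressed SOX9 fused to the HaloTag (L30prom_Sox9-GDGAGLIN-Halo-V5_IRES_Puro) and SOX9-mEGFP_budding SOX9 fused to mEGFP (L30prom_Sox9-GDGAGLIN-mEGFP-V5_IRES_Puro), and both grew as budding organoids. SOX9-Halo_spheroid held the SOX9-Halo construct and, in addition, labelled histone H2B (L30prom_H2B-GDGAGLIN-mEGFP-V5_IRES_Zeo), and SOX9-mEGFP_spheroid held the SOX9-mEGFP construct and another H2B label (L30prom_H2B-GDGAGLIN-mScarletI-V5_IRES_Neo). These organoids had turned into round spheroids, and they were at later passages than the budding organoids of their tag. Morphology, time in culture and the additional transgene therefore cannot be told apart. Each condition is 1 stable line. The study calls the libraries biological triplicates, the labels do not say whether they came from separate cultures, and the p-values below measure the spread between these libraries.

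Cornification is the last step of differentiation in stratified squamous epithelia such as the epidermis and the mouth. Keratinocytes cross-link involucrin (Ivl), small proline-rich proteins (Sprr1a, Sprr1b) and loricrin under the cell membrane with transglutaminases, and the resulting envelope replaces the membrane. Desmosomes join neighbouring cells through the cadherins of the desmoglein (Dsg) and desmocollin (Dsc) families, and plakoglobin, plakophilins and desmoplakin tie these cadherins to keratin filaments. Simple epithelia such as the intestine use Dsg2 and Dsc2, whereas Dsg3, Dsc3 and Pkp1 are typical of stratified epithelia, where p63 (Trp63) maintains the basal layer and stratifin (Sfn, 14-3-3 sigma) is abundant. SOX9 is a transcription factor of intestinal crypt cells and of Paneth cells.

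Ivl, Sprr1a and Sprr1b lie in the same stretch of chromosome 3 of the GRCm39 build, all on the minus strand, and their promoters are shown because these 3 neighbours behaved differently. Each sequence runs 5′ to 3′ from 250 bases before to 50 bases after the gene's start. The start is that of the Ensembl canonical transcript in the GENCODE annotation (GRCm39). The windows lie at chr3:92480993-92481292 for Ivl, chr3:92393159-92393458 for Sprr1a and chr3:92346047-92346346 for Sprr1b. Capitals mark matches, on either strand, to an AP-1 site (TGANTCA, with N for any base), a TATA box (TATAAA), a TEAD site (GGAATG) or a SOX site (ACAANG).
Ivl: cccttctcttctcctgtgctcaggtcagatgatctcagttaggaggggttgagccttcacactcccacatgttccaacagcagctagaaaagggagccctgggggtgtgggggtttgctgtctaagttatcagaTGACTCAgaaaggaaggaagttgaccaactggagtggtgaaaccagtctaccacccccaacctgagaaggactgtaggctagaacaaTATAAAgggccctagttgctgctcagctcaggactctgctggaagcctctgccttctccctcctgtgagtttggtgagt
Sprr1a: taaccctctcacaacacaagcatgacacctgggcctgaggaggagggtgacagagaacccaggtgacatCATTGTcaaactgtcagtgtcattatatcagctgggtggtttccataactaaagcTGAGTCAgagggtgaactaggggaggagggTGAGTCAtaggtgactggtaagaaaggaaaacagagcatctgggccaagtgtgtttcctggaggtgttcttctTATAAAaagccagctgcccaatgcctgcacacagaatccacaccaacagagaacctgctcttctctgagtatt
Sprr1b: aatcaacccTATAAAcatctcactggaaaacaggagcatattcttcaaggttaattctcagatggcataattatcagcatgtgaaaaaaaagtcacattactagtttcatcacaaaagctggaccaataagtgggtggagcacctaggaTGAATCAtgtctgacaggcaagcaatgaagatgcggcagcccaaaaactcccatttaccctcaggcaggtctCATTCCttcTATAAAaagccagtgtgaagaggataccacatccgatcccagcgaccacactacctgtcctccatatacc
AP-1 is the dimer of Fos and Jun proteins, and its letters occurred once upstream of Ivl, starting at position -116 from the start, at -126 and -96 upstream of Sprr1a and at -101 upstream of Sprr1b. A TATA box stood close to the start of all 3 genes, at -29 in Ivl, -23 in Sprr1a and -20 in Sprr1b, and Sprr1b had another at -241. Among 21757 windows of the same length, 7.15% held the AP-1 letters and 13.2% the TATA box, and neither was found in the windows of the other 7 genes. The TEAD letters were present at -29 in Sprr1b and at -151 in Dsg2 (14% of all windows), and the SOX letters at -181 in Sprr1a, -156 in Dsg3 and -232 in Dsc2 (39.3% of all windows). None of the 4 patterns overlapped another in the sequences shown. The windows of Sprr1a and Sprr1b were identical at 56.7% of aligned columns (181 of 319). Reads of their transcripts can be told apart, since no 50-base stretch of either transcript occurred in another gene. A match is only a match of letters, and no binding was measured here.

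Between 28062722 and 40559766 reads per library were counted on genes (median 33491297), which makes counts of a few reads visible but imprecise. Counts on Sox9 ran from 7.71 to 19.5 CPM (counts scaled to library size) in Halo-NLS and from 41.4 to 724.5 CPM over the 12 libraries with a SOX9 transgene, without separating transgene and endogenous transcripts. After genes with low counts were removed, 17560 genes were tested, among them 7 of the 10 genes, and Sprr1b, Dsc3 and Trp63 did not pass. A normalized count is a read count scaled to a common library size. A gene counts as called up or down if its adjusted p (edgeR's quasi-likelihood test, Benjamini-Hochberg) does not exceed 0.01, it differs by a factor of 2 or more, and its normalized count averages 10 or more. One library stood apart: Halo-NLS replicate 3 had a count on 40375 genes, the most of all libraries, and held the highest counts of Dsc3 (11 reads) and Trp63 (18 reads). Halo-NLS replicate 1 held the highest Dsg2 and Dsc2 of its condition.

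In both spheroid lines, Ivl, Sprr1a and Dsg3 were far above their levels in Halo-NLS, by factors from 16.5 for Sprr1a to 1366 for Ivl in SOX9-Halo_spheroid, while Trp63, Dsc3 and Sprr1b stayed at or near 0 reads. Of the 7 tested genes, 4 were called up and 0 down in SOX9-Halo_spheroid relative to Halo-NLS, where 13.6% of all tested genes were called up and 15.3% down. In SOX9-mEGFP_spheroid relative to Halo-NLS 6 were called up and 0 down (15.3% and 12.1% of all tested genes). Relative to the budding organoids with the same tag, 3 were called up and 0 down in SOX9-Halo_spheroid (10.5% and 14.7% of all tested genes) and 6 up and 0 down in SOX9-mEGFP_spheroid (8.55% and 7.88%). Ivl, Sprr1a and Dsg3 were the 3 genes called up in all 4 of these comparisons, 6 were called up in at least 1, and Sfn was called up in none. The median log2 fold change of the 7 genes was 1.52 in SOX9-Halo_spheroid and 2.88 in SOX9-mEGFP_spheroid relative to Halo-NLS, against -0.01 and 0.03 for all tested genes. Ivl passed the filter on low counts only through the spheroid libraries, while Sprr1b, Dsc3 and Trp63 were left out. These counts and medians therefore lean towards a rise by the way genes entered the test. By an unadjusted p of at most 0.05, 1 gene, Sfn, was lower than in Halo-NLS in each spheroid line, and DESeq2 called 0 down in all 4 comparisons. Both comparisons with Halo-NLS share its 3 libraries.

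**Figure D1:**
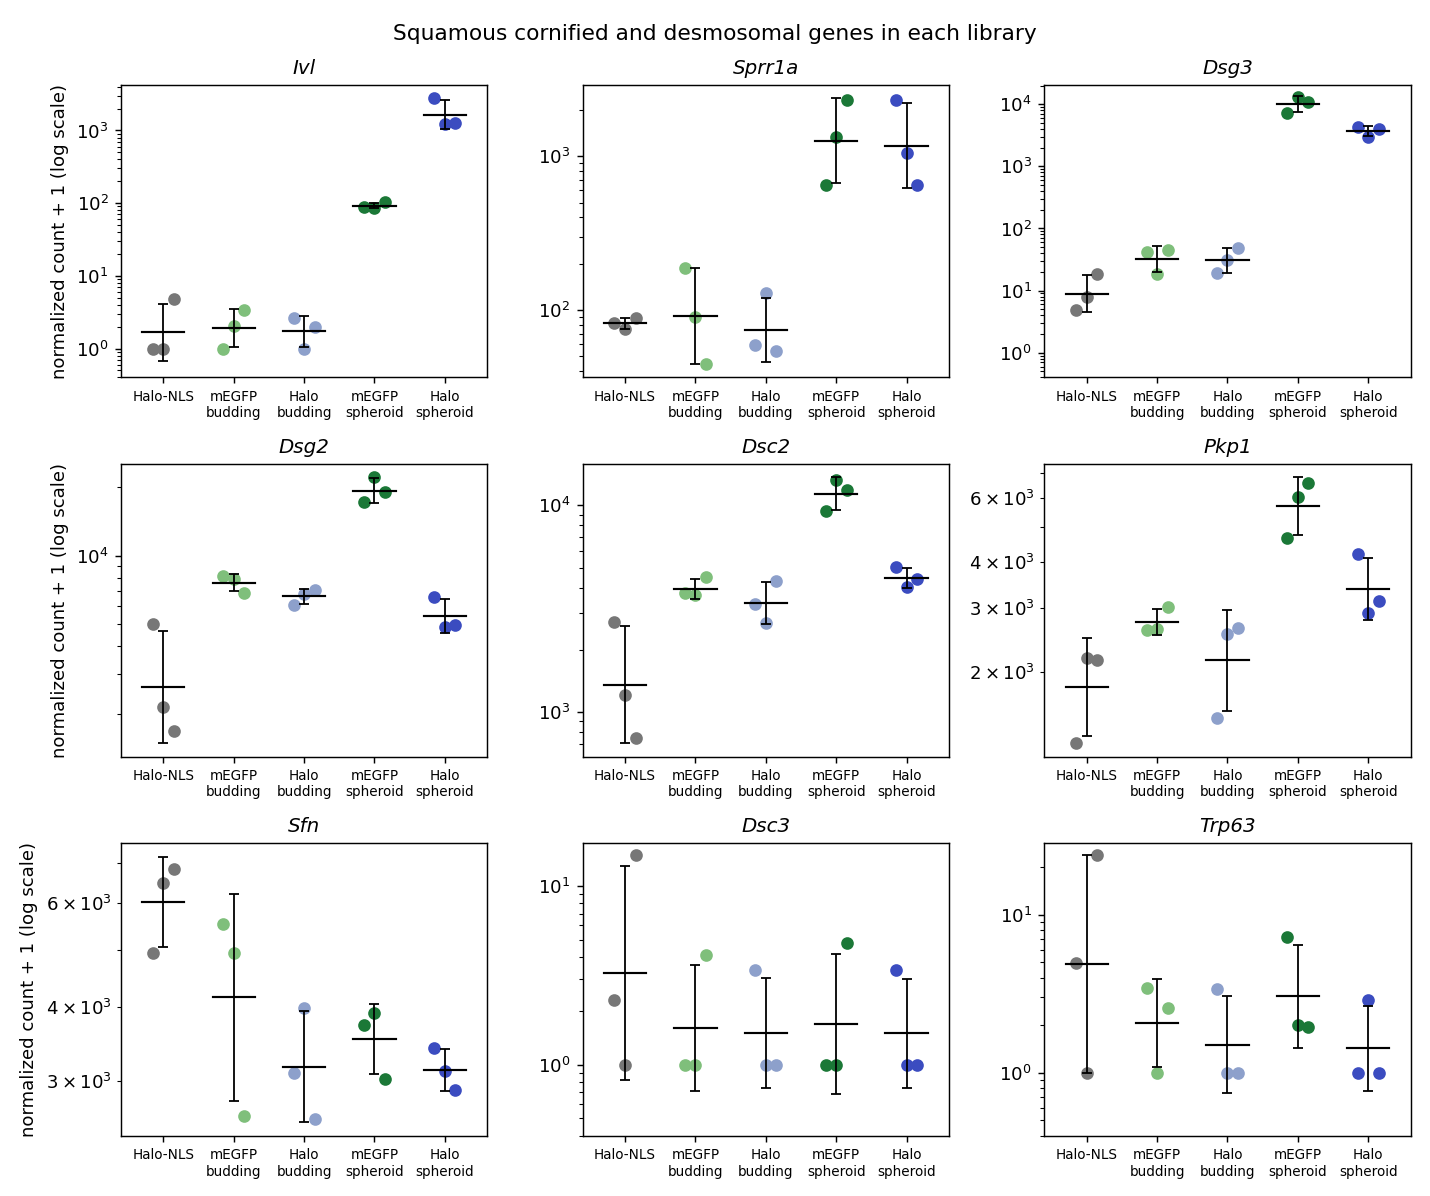
Normalized count plus 1 (log axis) of 9 of the 10 genes in the 15 libraries, with 1 point per library and bars for the mean ± SD of the log values. Sprr1b is left out, since it had 0 reads in all libraries. The spheroid libraries lie above all others for Ivl, Sprr1a and Dsg3, and Halo-NLS lies above both spheroid conditions for Sfn.

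Ivl (ENSMUSG00000049128, chromosome 3, 92478209 to 92481042, minus strand) encodes involucrin, a scaffold of the cornified envelope. Its normalized counts were 0, 0 and 3.77 in Halo-NLS, 1.59, 0 and 0.976 in SOX9-Halo_budding and 0, 1.04 and 2.34 in SOX9-mEGFP_budding. They were 2791, 1234 and 1275 in SOX9-Halo_spheroid and 87.9, 86.1 and 102 in SOX9-mEGFP_spheroid. The spheroid libraries did not overlap with any other library, nor with each other between lines, whereas the 9 libraries of the other conditions held at most 3 reads each. From so few reads a fold has a wide counting interval: the summed normalized level of SOX9-Halo_spheroid was 1366 times that of Halo-NLS (95% counting interval 467 to 6628) and 1859 times that of SOX9-Halo_budding (636 to 9020). For SOX9-mEGFP_spheroid the ratios were 74.5 to Halo-NLS (25.3 to 364) and 70.6 to SOX9-mEGFP_budding (27.3 to 260.8). All 3 control reads lay in Halo-NLS replicate 3, without which no control read is left (fitted log2 fold changes of 13.81 and 9.54, which then depend on the prior count). Against budding organoids the fitted values were 10.75 and 6.03, and they were 11.49 without SOX9-Halo_budding replicate 1 and 7.03 without SOX9-mEGFP_budding replicate 3. The counting intervals cover counting error only, since the reads carried no molecular identifiers. The adjusted p was at most 1.1e-05 in these 4 comparisons.

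Sprr1a (ENSMUSG00000050359, chromosome 3, 92390424 to 92393208, minus strand) encodes a small proline-rich protein that is cross-linked into the envelope. Unlike Ivl it had reads in every library, with normalized counts of 81.0, 74.6 and 88.0 in Halo-NLS, 58.1, 128 and 52.7 in SOX9-Halo_budding and 187, 89.3 and 43.6 in SOX9-mEGFP_budding. In SOX9-Halo_spheroid it had 2311, 1052 and 654 and in SOX9-mEGFP_spheroid 651, 1345 and 2312. Both spheroid conditions were above all other libraries and overlapped each other over almost their whole range. The log2 fold change to Halo-NLS was 4.04 ± 0.64 (SE, adjusted p = 9.8e-05) in SOX9-Halo_spheroid and 4.14 ± 0.64 (adjusted p = 0.00011) in SOX9-mEGFP_spheroid, and it was 4.07 and 3.76 relative to the budding organoids with the same tag (adjusted p = 9.6e-05 and 0.00031). Without SOX9-Halo_spheroid replicate 1 the values of that line were 3.40 and 3.42, and without SOX9-mEGFP_budding replicate 1 the last was 4.44, and all stayed called. Sprr1b (chromosome 3, 92344116 to 92346096, minus strand), which encodes the closest relative of Sprr1a, had 0 reads in all 15 libraries, and a count of 0 allows up to 3 reads per library.

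Dsg3 (ENSMUSG00000056632, chromosome 18, 20643331 to 20680516, plus strand) encodes the desmoglein of the lower layers of stratified epithelia and the main antigen of pemphigus vulgaris. Normalized counts were 3.92, 6.89 and 17.6 in Halo-NLS, 18.3, 30.2 and 47.8 in SOX9-Halo_budding and 40.1, 17.7 and 43.6 in SOX9-mEGFP_budding. They reached 4281, 2988 and 3976.5 in SOX9-Halo_spheroid and 7278, 13056 and 10980.3 in SOX9-mEGFP_spheroid. Spheroids of each line were separated from each other and from all budding and control libraries, and all 6 libraries of the budding SOX9 lines were above the 3 of Halo-NLS. The log2 fold change to Halo-NLS was 8.61 ± 0.55 in SOX9-Halo_spheroid (adjusted p = 1.4e-08) and 10.09 ± 0.57 in SOX9-mEGFP_spheroid (adjusted p = 1.7e-08). Relative to the budding organoids with the same tag it was 6.87 ± 0.49 (adjusted p = 4.8e-08) and 8.26 ± 0.51 (adjusted p = 4.9e-08). Without Halo-NLS replicate 3 the values relative to Halo-NLS were 9.39 and 10.86. Dsg3 shares 107 exon bases with Gm58904 on the opposite strand, and the counting did not use strand.

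**Figure D2:**
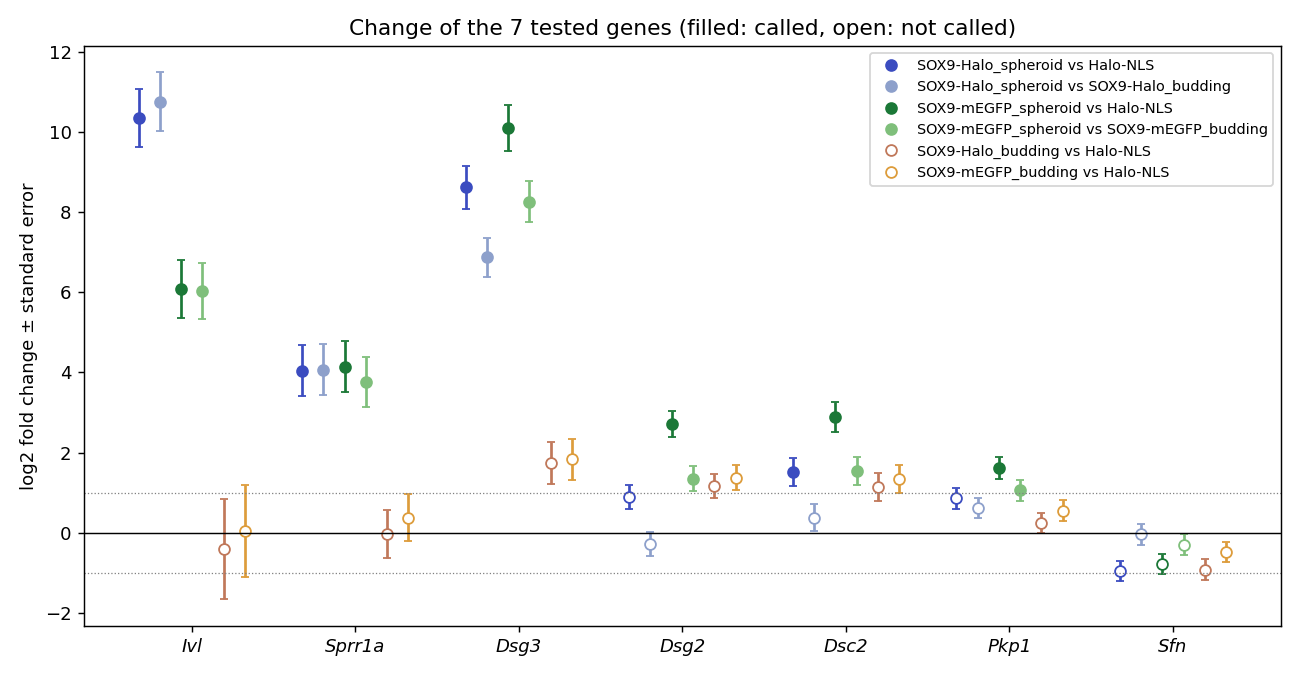
Log2 fold change ± SE of the 7 tested genes in 6 comparisons, 4 of spheroids and 2 of budding organoids with Halo-NLS. Filled points are called, open points are not, and dotted lines mark a fold change of 2 in either direction. Ivl, Sprr1a and Dsg3 are filled in all 4 spheroid comparisons and Sfn in none.

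The desmosomal genes that intestinal epithelium already uses had smaller fold changes, called mainly in the SOX9-mEGFP line. Dsg2 (chromosome 18, 20691074 to 20737581, plus strand), the desmoglein of simple epithelia, had normalized counts of 4982, 2156 and 1687 in Halo-NLS, 6079, 6744 and 7033 in SOX9-Halo_budding and 8103, 7880 and 6873 in SOX9-mEGFP_budding. It had 6580, 4858 and 4967 in SOX9-Halo_spheroid, which overlapped with Halo-NLS and with SOX9-Halo_budding, and 17190, 22096 and 19003 in SOX9-mEGFP_spheroid, above all other libraries. Dsg2 rose in SOX9-mEGFP_spheroid by 2.72 ± 0.32 on the log2 scale relative to Halo-NLS (adjusted p = 1e-05) and by 1.35 ± 0.31 relative to SOX9-mEGFP_budding (adjusted p = 0.0037). For SOX9-Halo_spheroid the values were 0.89 ± 0.31 relative to Halo-NLS (adjusted p = 0.025) and -0.28 ± 0.30 relative to SOX9-Halo_budding (adjusted p = 0.51), and neither was called. Without Halo-NLS replicate 1 the first of these was 1.52 (adjusted p = 4.3e-05) and called, and that of SOX9-mEGFP_spheroid was 3.34. Dsg2 shares 330 exon bases with Gm16090 on the opposite strand, and 5.02% of its 50-base stretches occur in other genes.

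Dsc2 (chromosome 18, 20163675 to 20192717, minus strand), the desmocollin of simple epithelia, also had its lowest mean in Halo-NLS and its highest in SOX9-mEGFP_spheroid. Its normalized counts were 2726, 1206 and 752 in Halo-NLS, 3349, 2683 and 4285 in SOX9-Halo_budding and 3744, 3673 and 4477 in SOX9-mEGFP_budding, against 5019, 4038 and 4379 in SOX9-Halo_spheroid and 9371, 13324 and 11889 in SOX9-mEGFP_spheroid. Relative to Halo-NLS it rose in both spheroid lines, by 1.52 ± 0.35 in SOX9-Halo_spheroid (adjusted p = 0.0024) and by 2.88 ± 0.37 in SOX9-mEGFP_spheroid (adjusted p = 2.1e-05). The call in SOX9-Halo_spheroid was lost without Halo-NLS replicate 2 (1.37, adjusted p = 0.014) and when only the compared libraries were fitted (adjusted p = 0.014), while without replicate 1 both values were larger (2.20 and 3.56). Relative to the budding organoids with the same tag Dsc2 rose in SOX9-mEGFP_spheroid (1.54 ± 0.35, adjusted p = 0.0038), while in SOX9-Halo_spheroid the value was 0.38 ± 0.35 (adjusted p = 0.41) with overlapping libraries.

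Pkp1 (chromosome 1, 135799133 to 135846945, minus strand) encodes a plakophilin that reinforces desmosomes in stratified epithelia, and it was present in all libraries here. Normalized counts were 1274, 2188 and 2159.5 in Halo-NLS, 1492, 2539 and 2639.98 in SOX9-Halo_budding, 2601, 2628 and 3012 in SOX9-mEGFP_budding, 4219, 2903 and 3130.2 in SOX9-Halo_spheroid and 4654, 6019.96 and 6588 in SOX9-mEGFP_spheroid. All 6 spheroid libraries were above all control libraries and above the budding libraries with the same tag. The rise was called in SOX9-mEGFP_spheroid only, with a log2 fold change of 1.62 ± 0.27 to Halo-NLS (adjusted p = 0.00019) and of 1.07 ± 0.26 to SOX9-mEGFP_budding (adjusted p = 0.006). In SOX9-Halo_spheroid it was 0.87 ± 0.26 (adjusted p = 0.013) and 0.62 ± 0.26 (adjusted p = 0.07). In the comparison of SOX9-mEGFP_spheroid with SOX9-mEGFP_budding, the calls of Dsg2, Dsc2 and Pkp1 were all lost, and the count of genes called up went from 6 to 3, without SOX9-mEGFP_budding replicate 1 or 2 or SOX9-mEGFP_spheroid replicate 2 or 3. Their log2 fold changes were then at least 0.93 (adjusted p from 0.013 to 0.034), and without SOX9-mEGFP_budding replicate 3 those of Dsg2 and Pkp1 were lost (1.23 and 1.09, adjusted p = 0.017 and 0.016).

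Sfn (chromosome 4, 133327867 to 133329479, minus strand) encodes 14-3-3 sigma, a cell cycle regulator of keratinocytes, and had its highest mean in Halo-NLS. Its normalized counts were 4931, 6476.5 and 6857 in Halo-NLS, 3099.5, 3984 and 2585 in SOX9-Halo_budding, 5535, 4946 and 2619 in SOX9-mEGFP_budding, 3409, 3114 and 2897 in SOX9-Halo_spheroid and 3734, 3911 and 3022 in SOX9-mEGFP_spheroid. All spheroid and SOX9-Halo_budding libraries were below all of Halo-NLS, and SOX9-mEGFP_budding overlapped with it. The log2 fold change to Halo-NLS was -0.96 ± 0.26 in SOX9-Halo_spheroid (adjusted p = 0.0066), just short of a fold change of 2, and -0.78 ± 0.26 in SOX9-mEGFP_spheroid (adjusted p = 0.021). Without Halo-NLS replicate 1 the former was -1.08 (adjusted p = 0.0046) and called down. Spheroids and budding organoids with the same tag overlapped. Of the 50-base stretches of Sfn, 15% occur in Gm5279, Gm7850 or Ywhaq-ps1, and whether reads there were lost from its count was not tested.

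Trp63 and Dsc3, the remaining genes, had too few reads to be tested. Trp63 (chromosome 16, 25502513 to 25710852, plus strand), the master regulator of stratified epithelia, had 3, 0 and 18 reads in Halo-NLS, at most 3 in each budding library, 0, 2 and 0 in SOX9-Halo_spheroid and 7, 1 and 1 in SOX9-mEGFP_spheroid. Dsc3 (chromosome 18, 20093987 to 20135408, minus strand), the desmocollin that pairs with Dsg3 in basal layers, had 1, 0 and 11 reads in Halo-NLS, at most 4 in each budding library, 2, 0 and 0 in SOX9-Halo_spheroid and 0, 0 and 4 in SOX9-mEGFP_spheroid. For both genes the highest library was Halo-NLS replicate 3, and spheroids and the other conditions overlapped.

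Per length, the order of the genes differed between conditions. On the RPKM scale (reads per kilobase of exon after scaling each library to CPM, given as mean ± SD of 3 libraries), Sfn led in Halo-NLS with 112 ± 18.8, followed by Pkp1 with 11.1 ± 3.08, Dsg2 with 9.14 ± 5.54 and Dsc2 with 8.56 ± 5.67, which overlapped one another, then Sprr1a with 1.47 ± 0.121 and Dsg3 with 0.0404 ± 0.0307. In SOX9-mEGFP_spheroid Sfn (65.7 ± 8.69), Dsc2 (63.2 ± 11.0) and Dsg2 (60.4 ± 7.71) lay within their spread, Dsg3 was at 44.6 ± 12.4995, Pkp1 at 34.1 ± 5.90, Sprr1a at 26.0 ± 15.1 and Ivl at 1.43 ± 0.134. In SOX9-Halo_spheroid Sfn was again highest at 58.0 ± 4.75, and Ivl (27.4 ± 13.8), Dsc2 (24.6 ± 2.73), Sprr1a (24.2 ± 15.7), Pkp1 (20.3 ± 4.17), Dsg2 (17.0 ± 3.00) and Dsg3 (16.01 ± 2.89) followed, with neighbours in this order within their spread. Ivl was thus among the leading genes in one spheroid line and the lowest of the 7 in the other. The lengths are those of all annotated exons of a gene together, for Dsg2 9592 bases against 5823 in its canonical transcript. The place of Dsg2 in these orders therefore depends on the length used. In bulk RNA, fewer cells of a type and less RNA per cell cannot be told apart.

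The spheroid lines were compared directly to ask where they differ. Relative to SOX9-mEGFP_spheroid, 1 of the 7 genes was called up in SOX9-Halo_spheroid and 3 down (3.59% and 9.58% of all tested genes). Ivl was higher in SOX9-Halo_spheroid by 4.26 ± 0.49 on the log2 scale (adjusted p = 1.2e-05), while Dsg2 was lower by 3.55-fold (log2 fold change -1.83 ± 0.31, adjusted p = 0.00049), Dsg3 by 2.78-fold (-1.48 ± 0.37, adjusted p = 0.0091) and Dsc2 by 2.57-fold (-1.36 ± 0.35, adjusted p = 0.0099). Pkp1 (-0.75 ± 0.26, adjusted p = 0.048), Sfn (-0.18 ± 0.26, adjusted p = 0.67) and Sprr1a (-0.10 ± 0.55, adjusted p = 0.92) were not called. The count called down was 1 when any SOX9-Halo_spheroid library or SOX9-mEGFP_spheroid replicate 2 or 3 was left out, since Dsg3 and Dsc2 then missed the threshold (adjusted p from 0.021 to 0.055), and Dsc2 also missed it without SOX9-mEGFP_spheroid replicate 1 (adjusted p = 0.014). Tested as a difference between the lines in the change from budding organoids to spheroids, 0 of the 7 genes were called up and 0 down (1.81% and 5.58% of all tested genes). By an unadjusted p of at most 0.05 that difference was positive for 1 gene and negative for 3, and DESeq2 called 1 up and 1 down. The values nearest to a call were those of Ivl (4.71 ± 1.45, adjusted p = 0.044) and Dsg2 (-1.63 ± 0.43, adjusted p = 0.021).

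Of the 10 genes, 4 lie within one cluster of cadherin genes on chromosome 18, and the whole chromosome differed between the lines. The median log2 fold change of the 465 tested genes on it was 0.81 in SOX9-mEGFP_spheroid relative to Halo-NLS, the highest of 20 chromosomes (the others from -0.79 to 0.48), and 0.43 relative to SOX9-mEGFP_budding, also the highest (the others from -0.43 to 0.12). In SOX9-Halo_spheroid it was 0.19 relative to Halo-NLS and -0.08 relative to SOX9-Halo_budding, and between the spheroid lines it was -0.60, the lowest of 20. Genes beside the cadherins were called up with them in SOX9-mEGFP_spheroid relative to Halo-NLS, namely Rnf138 (1.37), Trappc8 (2.11), Garem1 (1.70) and B4galt6 (1.87), while Mep1b (-0.80), Ttr (0.19) and Rnf125 (-0.31) were not called. When each gene was scaled to the other genes of its own chromosome, the log2 fold changes of Dsg3, Dsg2 and Dsc2 in that comparison were 9.34, 2.05 (adjusted p = 3.4e-05) and 2.22 (adjusted p = 4.8e-05), and all stayed called. Relative to SOX9-mEGFP_budding, Dsg2 (0.91, adjusted p = 0.018) and Dsc2 (1.10, adjusted p = 0.011) lost their calls under this scaling, and so did Pkp1 on chromosome 1 (0.96, adjusted p = 0.021). Between the spheroid lines Dsg2 stayed called (-1.42, adjusted p = 0.0012), whereas Dsg3 (-1.06, adjusted p = 0.055) and Dsc2 (-0.95, adjusted p = 0.033) did not. The number of copies of the chromosome was not measured, and its part in these differences was not tested.

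**Figure D3:**
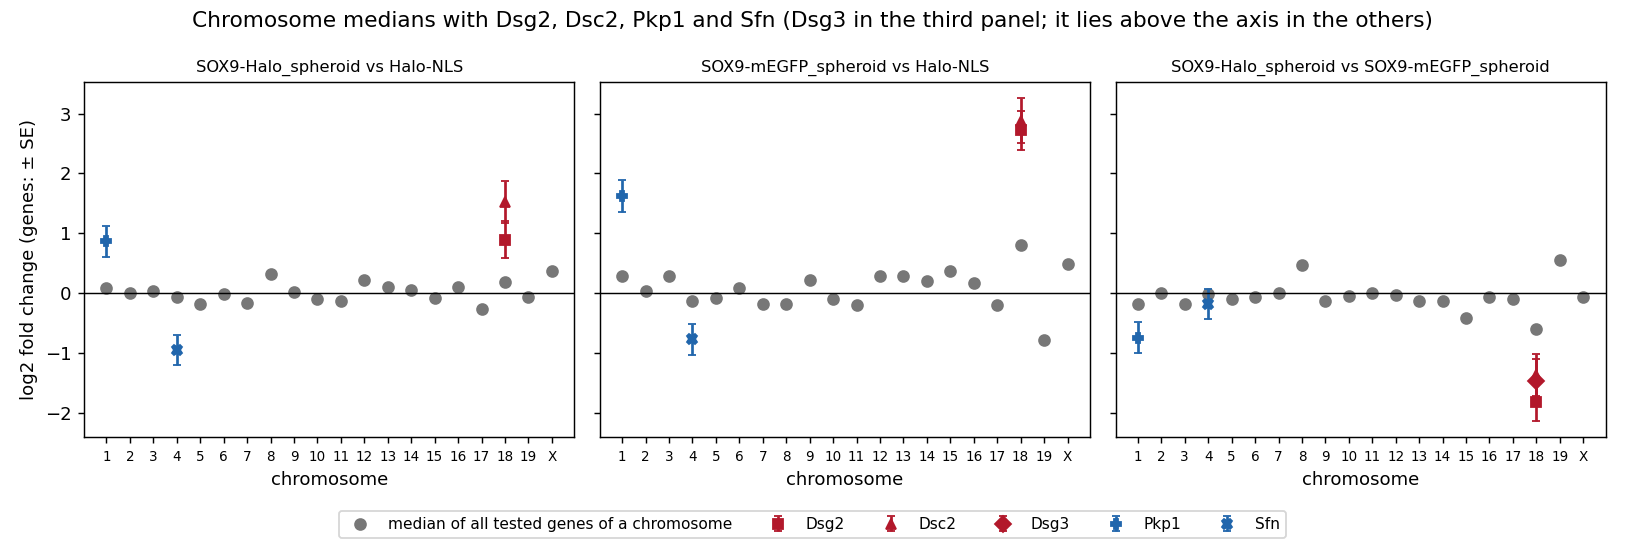
Median log2 fold change of all tested genes on each of 20 chromosomes (grey) in 3 comparisons, with the log2 fold change ± SE of Dsg2, Dsc2, Pkp1 and Sfn on their chromosomes, and of Dsg3 in the comparison of the spheroid lines. Chromosome 18 has the highest median in SOX9-mEGFP_spheroid relative to Halo-NLS (0.81) and the lowest between the spheroid lines (-0.60).

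The budding organoids carry the SOX9 transgenes without the spheroid morphology. Relative to Halo-NLS, 0 of the 7 genes were called up or down in SOX9-Halo_budding (2.49% and 1.26% of all tested genes) and likewise in SOX9-mEGFP_budding (1.99% and 0.763%). By an unadjusted p of at most 0.05, 3 genes were higher and 1 lower in SOX9-Halo_budding and 3 higher and 0 lower in SOX9-mEGFP_budding, and DESeq2 called 2 and 3 up and 0 down. The 3 genes were Dsg3, Dsg2 and Dsc2 in both lines, all on chromosome 18. Its median log2 fold change was 0.36 in SOX9-Halo_budding and 0.30 in SOX9-mEGFP_budding, at ranks 2 and 3 among the chromosomes. Under own-chromosome scaling the 3 genes had 1.40, 0.91 and 0.87 in SOX9-Halo_budding (adjusted p = 0.075, 0.033 and 0.056). In SOX9-mEGFP_budding they had 1.51, 1.14 and 1.11 (adjusted p = 0.066, 0.018 and 0.031). The part of the chromosome was not tested. Without this scaling, Dsg3 had log2 fold changes of 1.74 ± 0.52 and 1.83 ± 0.52 in SOX9-Halo_budding and SOX9-mEGFP_budding (adjusted p = 0.033 in both), Dsg2 of 1.17 ± 0.31 and 1.37 ± 0.31 (adjusted p = 0.021 and 0.014) and Dsc2 of 1.14 ± 0.35 and 1.34 ± 0.35 (adjusted p = 0.037 and 0.025). Without Halo-NLS replicate 1, Dsg2 was called up in both lines (1.79 and 1.99, adjusted p = 9.8e-05 and 6.5e-05) and so was Dsc2 (1.81 and 2.02, adjusted p = 0.00041 and 0.00022), which made 2 genes called up in each. Dsg3 stayed uncalled there. With the replicate number as a block, Dsg2 was also called in SOX9-mEGFP_budding (1.44, adjusted p = 0.0081). Ivl and Sprr1a overlapped between budding organoids and Halo-NLS, with log2 fold changes of Sprr1a of -0.03 ± 0.59 and 0.38 ± 0.59. Between the 2 budding lines 0 genes were called up or down (0.29% and 0.165% of all tested genes), 0 had an unadjusted p of at most 0.05 and DESeq2 called 0.

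Other genes of the cornified envelope were examined to place the changes of Ivl and Sprr1a. Of 59 listed, 19 were tested, and 10 were called up and 1 down in SOX9-Halo_spheroid relative to Halo-NLS and 13 up and 1 down in SOX9-mEGFP_spheroid, with a median log2 fold change of 2.55 and 3.98 (all tested genes: -0.01 and 0.03). The shares over all tested genes were 13.6% up and 15.3% down in the former and 15.3% and 12.1% in the latter. Genes low in every library were not tested, whereas Tgm1, Scel and Tchh were tested with at most 3 reads in each Halo-NLS library. The counts and medians of this list therefore lean towards a rise, and fitted values of such genes depend on the prior count. The same filter applied to the lists below. Tgm1, the transglutaminase that cross-links the envelope, was 174 times its Halo-NLS level in SOX9-Halo_spheroid (counting interval 31.0 to 6920.1) and 97.3 times in SOX9-mEGFP_spheroid (17.1 to 3872). Scel, which encodes sciellin, an envelope precursor, was 131 times (55.8 to 403) and 427 times (183 to 1317) its control level. Tchh, which encodes trichohyalin of hair follicles, was 98.0 times (33.3 to 477) and 177 times (60.5 to 862.5) its level in Halo-NLS. It was also called up in SOX9-Halo_budding, at 10.04 times the control level (3.20 to 50.7, adjusted p = 0.0033). Ppl, the cytolinker periplakin, rose in both lines (2.81 and 2.86), whereas Evpl, its partner envoplakin, was not called (0.87 and -0.45). Loricrin, the bulk protein of the epidermal envelope, rose in SOX9-Halo_spheroid (4.96 ± 0.77) and had a log2 fold change of 1.41 ± 0.74 in SOX9-mEGFP_spheroid (adjusted p = 0.12). Ecm1, a secreted protein of the epidermis, rose by 2.00 and 5.03. The gene that fell in both lines was Cst6 (-4.52 and -3.29), a cysteine protease inhibitor of the epidermis, and Flg, the filaggrin gene, had at most 2 reads per library. Sprr2a3 was the most abundant gene of the list and was not called (-1.10 and 0.25), and its near-identical Sprr2a copies make its counts uncertain.

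Among 12 other desmosomal genes, 9 were tested, and 5 were called up in SOX9-Halo_spheroid and 4 in SOX9-mEGFP_spheroid relative to Halo-NLS, with 0 down in both (13.6% and 15.3% of all tested genes were called up). Their median log2 fold change was 1.39 and 0.71, against -0.01 and 0.03 for all tested genes. Dsp, the desmoplakin that anchors keratins, rose by 1.62 ± 0.40 and 2.42 ± 0.41 on the log2 scale. It was already called up in SOX9-Halo_budding relative to Halo-NLS (1.83, adjusted p = 0.0098), had a value of 1.75 in SOX9-mEGFP_budding (adjusted p = 0.014), and was not called between spheroids and the budding organoids of their tag (-0.21 and 0.67, adjusted p = 0.71 and 0.24). Perp, a membrane protein of desmosomes, rose by 1.98 and 1.55, Pkp4 by 2.52 and 2.03, and Dsg1c, a desmoglein of the cluster on chromosome 18, was 9.85 times (counting interval 4.00 to 31.4) and 14.6 times (6.02 to 45.8) its control level. In the budding lines Dsg1c was 5.14 times (2.01 to 16.8) and 6.81 times (2.70 to 22.0) the control level, and between spheroids and budding organoids of 1 tag it was not called (0.93 and 1.14, adjusted p = 0.21 and 0.14). Relative to the budding organoids of their tag, 3 of these genes were called up in each spheroid line and 0 down. Of all tested genes, 10.5% were called up there in SOX9-Halo_spheroid and 8.55% in SOX9-mEGFP_spheroid. Kazn, which encodes a periplakin-binding protein, was called up in SOX9-Halo_spheroid (1.39) and not in SOX9-mEGFP_spheroid (0.71). Jup, the plakoglobin that all desmosomal cadherins bind, was not called (0.02 and -0.38), nor were the plakophilins Pkp3 (-0.06 and -0.61) and Pkp2 (-0.46 and 0.33). Dsg1a and Dsc1, cadherins of the upper epidermis, had at most 2 and 5 reads per library.

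Transcription factors of squamous epithelia moved in both directions. Of 20 listed, 17 were tested, and 9 were called up and 4 down in SOX9-Halo_spheroid and 7 up and 4 down in SOX9-mEGFP_spheroid relative to Halo-NLS. Of all tested genes, 13.6% were called up and 15.3% down in the former comparison and 15.3% and 12.1% in the latter. The median log2 fold change of the list was 1.22 and 0.19, against -0.01 and 0.03 for all tested genes. Zfp750, which drives late keratinocyte differentiation, rose in both lines (6.33 ± 0.82 and 5.99 ± 0.82), and so did Tfap2a (5.66 and 4.18) and the epithelial regulator Grhl2 (2.27 and 2.04). Grhl2 was also called up in both budding lines (1.01 and 1.33, adjusted p = 0.0062 and 0.0011), and relative to the budding organoids of their tag it was called up in SOX9-Halo_spheroid (1.26, adjusted p = 0.00012) and not in SOX9-mEGFP_spheroid (0.71, adjusted p = 0.013). Pax9, a factor of the oesophagus and the mouth, rose in SOX9-Halo_spheroid (5.87 ± 0.71) and had a value of -0.12 ± 0.90 in SOX9-mEGFP_spheroid. Klf4, which is used by skin and intestine alike, rose in SOX9-mEGFP_spheroid (1.46) and was not called in SOX9-Halo_spheroid (-0.42). Klf5 was not called (-0.11 and 0.19), and Trp73, the relative of Trp63, had at most 6 reads per library.

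**Figure D4:**
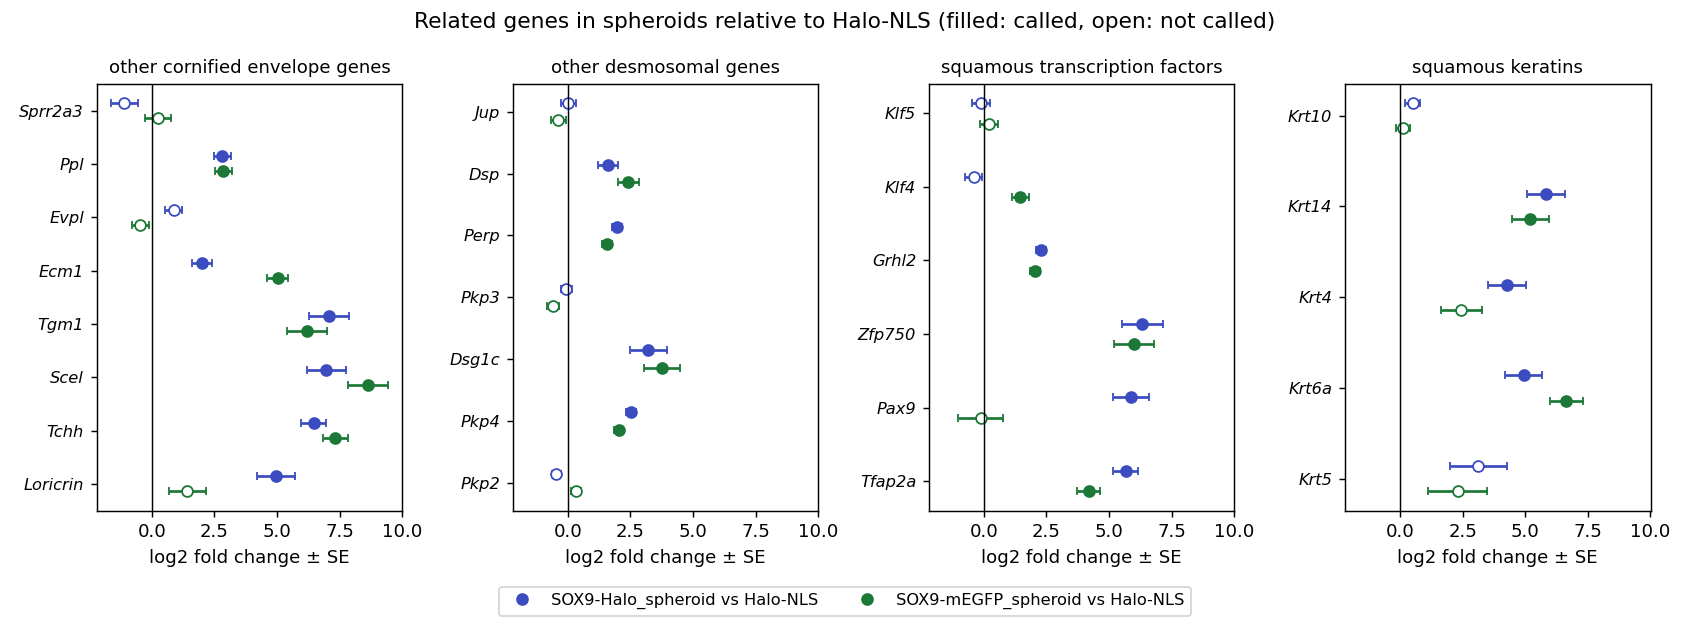
Log2 fold change ± SE relative to Halo-NLS of the named genes of 4 lists in both spheroid lines (filled points are called, open points are not). Fitted values of genes with at most 3 reads per control library, such as Tgm1 and Scel, depend on the prior count, and their ratios with counting intervals are in the text.

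Of 8 squamous keratin genes 7 were tested, and 3 were called up in SOX9-Halo_spheroid and 2 in SOX9-mEGFP_spheroid relative to Halo-NLS, with 0 down. Among all tested genes, 13.6% and 15.3% were called up in these comparisons. Krt14, the keratin of basal keratinocytes, had mean normalized counts of 3.77 in Halo-NLS, 220 in SOX9-Halo_spheroid and 142 in SOX9-mEGFP_spheroid (log2 fold change 5.84 ± 0.75 and 5.21 ± 0.75). Krt6a, a keratin of oral epithelium and wounds, was 39.6 times (counting interval 6.78 to 1594) and 129 times (22.9 to 5142) its control level. Krt5, the obligate partner of Krt14, had at most 23 reads per library and was not called (adjusted p = 0.034 and 0.12). Krt4 of the oesophagus was called up in SOX9-Halo_spheroid (4.28) and not in SOX9-mEGFP_spheroid (2.45), and Krt10 was not called. Of the 6 other 14-3-3 genes, Ywhaz was called up (1.51 and 1.44), and Ywhae (0.01 and -0.25), Ywhab (0.07 and 0.25) and Ywhag (0.57 and 0.29) were not.

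The labelled tissue was checked with 6 markers of intestinal epithelium, and in SOX9-Halo_spheroid 4 of them were called down relative to Halo-NLS (15.3% of all tested genes). Cdx2, the intestinal master regulator, fell there from a mean normalized count of 14708 to 90.4 (log2 fold change -7.35 ± 0.31), Krt20 from 8097 to 10.3, Vil1 from 47366 to 3955 and Epcam from 33336 to 15463. Cdh1 (0.48) and Krt8 (-0.48), general epithelial genes, were not called. In SOX9-mEGFP_spheroid only Cdx2 was called down, to 2576 (-2.51 ± 0.25), where 12.1% of all tested genes were called down. The summed normalized count of the 6 markers was 112827 to 118504 in SOX9-Halo_spheroid, 245008 to 254718 in SOX9-mEGFP_spheroid and 173615 to 242095 in Halo-NLS. The markers of other cell types had low summed counts. Relative to Halo-NLS these sums were lower in the spheroids for mesenchyme and endothelium and higher for immune cells. Cdh5 and Col1a2 had at most 1 read and Ptprc at most 5 in any spheroid library, and the summed markers of mesenchyme were 36.9 to 68.7 in the spheroids against 197 to 278 in Halo-NLS, with Vim called down in both lines (-3.53 and -2.56). Of the 5 mesenchyme markers 2 were tested, and the summed level in Halo-NLS was mostly that of Vim. The other tested marker, Col1a1, had mean normalized counts of 4.94 in Halo-NLS, 21.2 in SOX9-Halo_spheroid and 10.2 in SOX9-mEGFP_spheroid and was not called (2.05 and 1.02, adjusted p = 0.019 and 0.23). The summed immune markers were 103 to 271 in SOX9-Halo_spheroid and 125 to 194 in SOX9-mEGFP_spheroid, against 21.8 to 91.8 in Halo-NLS. Of these immune markers Cd68 was called up (2.59 and 2.57), and its part in the results was not tested.

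By pattern over the 15 libraries, the genes most like each called gene were found from the root mean square difference of centred log2 CPM. Closest to Ivl were Plau (0.67), Ptgs1 (0.71) and Krt79 (0.78), and closest to Sprr1a were Ripor3 (0.55) and Cwh43 (0.58). Dsg3 was followed most closely by Clu (0.47), Cav1 (0.61) and Col18a1 (0.77). For Dsg2 these were Galnt3 (0.25), Gfpt1 (0.26) and Galnt7 (0.28), for Dsc2 Arrdc3 (0.24), Clcn5 (0.28) and Alcam (0.29), and for Pkp1 Gjb2, App and Gadd45g (0.28 each). The libraries share their conditions, so these values describe likeness over 5 conditions and were not tested.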

How the data were processed

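The libraries were made from poly(A) RNA with a kit that does not mark strand. The authors trimmed the reads with cutadapt 4.5, mapped them to mm39 (GRCm39) with STAR and, from uniquely mapped reads, obtained a count per gene with HTSeq 2.0.2 in union mode without strand. The deposited counts are whole numbers per library and were not normalized. Reads on more than 1 gene (9.65% to 13.6%) were left out by the authors. A deposited table of DESeq2-normalized counts and tables of the authors' comparisons, which hold fold changes and p-values from DESeq2 (Galaxy version 2.11.40.8), were not used here.

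Groups and replicate numbers were taken from the labels. The 10 genes and the lists of related genes were chosen with earlier results of these data known. Counts were filtered with filterByExpr, scaled with TMM and fitted with edgeR 4.0.16 in 1 quasi-likelihood model over all 15 libraries (R 4.3.3, limma 3.58.1), with 1 coefficient per condition and p-values adjusted over 17560 genes. DESeq2 1.42.0 was an alternative. The SE of a log2 fold change is its size over the square root of the F statistic, and fitted fold changes use edgeR's default prior count. A prior count of 2 was used only for the log2 CPM by which likeness of pattern was ranked. Where a condition held at most 3 reads in each library, ratios are given with exact counting intervals instead. On simulated counts for SOX9-Halo_spheroid against Halo-NLS (16881 genes), 6% of 2-fold, 76% of 4-fold and 100% of 8-fold changes were called, and 3 of 16681 unchanged genes. Only 50 genes were changed at each fold, a far smaller share than was called in the data. The adjusted p depends on this share, so these rates do not carry over to the data.

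Same-numbered libraries deviated together for every replicate number (r above 0.1) in 1 of 10 pairs of conditions, SOX9-Halo_budding and SOX9-Halo_spheroid (r = 0.403, 0.234 and 0.344 over 11054 genes). The replicate number was therefore tried as a block in that pair, in a fit chosen after the data were seen, and it changed none of the calls of the 7 tested genes. Other pairs shared deviations for some numbers only. Halo-NLS and SOX9-Halo_budding had r of 0.47, 0.817 and -0.0545, and the budding lines had 0.0402, 0.358 and 0.74. A replicate block over all libraries was therefore among the alternatives. The labels name no batch. All genes named are members, or were named by a rule: in each list the 4 most abundant tested genes, the 4 called genes with the largest change in SOX9-Halo_spheroid relative to Halo-NLS, and known partners. Markers of other cell types come from the marker lists, and genes of most like pattern were ranked by the difference given with them. Kazn, Cst6, the neighbours of the cadherins and the genes whose difference between the lines was called (among them Grhl3, Tfap2c and Barx2) were added after their values were seen, and so was the choice of which markers of other cell types to print. A few genes that the rule names are not reported here. Sequences are from the GRCm39 assembly and from GENCODE, in which the starts of all 10 genes were found.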

Additional observations from a re-analysis of the deposited data

Results flagged for a closer look

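In the difference between the lines in the change from budding organoids to spheroids, 0 of the 7 tested genes were called by edgeR, 1 was positive and 3 negative at an unadjusted p of at most 0.05, and DESeq2 called 1 up and 1 down. Sprr1b, Dsc3 and Trp63 were not tested. Among related genes, that difference (SOX9-Halo line minus SOX9-mEGFP line, log2, edgeR's quasi-likelihood test) was called for 8 (1.81% of all tested genes were called up and 5.58% down). Of 17 tested squamous transcription factors 2 were up and 1 down, of 19 envelope genes 0 and 1, and of 6 intestinal markers 0 and 4. Of 9 other desmosomal genes, 6 other 14-3-3 genes and 7 squamous keratins, 0 were called. The difference was positive for Grhl3 (6.36, adjusted p = 3.8e-06), which encodes a factor of epidermal barrier formation, and for Tfap2c (10.23, adjusted p = 0.00089). Tfap2c had at most 4 reads in each library of the other SOX9 conditions and a mean normalized count of 215 in SOX9-Halo_spheroid, so the size of its value depends on the prior count. It was negative for Barx2 (-5.35, adjusted p = 3.1e-05), whose mean normalized count was 7.84 in SOX9-Halo_spheroid and 378 in SOX9-mEGFP_spheroid, and for the envelope gene Ecm1 (-2.60, adjusted p = 0.0036). It was also negative for 4 markers of intestinal epithelium, Cdx2 (-4.84, adjusted p = 5.3e-07), Krt20 (-7.71, adjusted p = 1.7e-05), Vil1 (-2.83, adjusted p = 9.5e-05) and Epcam (-1.01, adjusted p = 0.0058). With 3 libraries per condition, single outlying libraries were not tested.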

How the results depend on the processing

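Of 371 fold changes of the 7 tested genes in the 4 comparisons of spheroids with Halo-NLS or budding organoids, recomputed under the alternatives, 347 kept their direction and their side of the threshold, and Ivl, Sprr1a and Dsg3 stayed called in all of them. Counts of called genes moved by over 1.5 times as follows, and unless stated the cause was not tested. With library sizes alone, which moved the median of all genes relative to Halo-NLS to between 0.27 and 0.31, 1 gene was called up in each budding line and 1 down between the spheroid lines. Without a filter 3 genes were called up in each budding line, with DESeq2 2 and 3, and at an adjusted p of at most 0.05 3 and 3, and each of these settings called 1 up and 1 down in the difference between the lines. With only the compared libraries, 1 was called down in that difference. At a log2 fold change of at least 2, 3 genes were up in SOX9-mEGFP_spheroid relative to SOX9-mEGFP_budding and 0 down between the spheroid lines, and with own-chromosome scaling 3 and 1. With the replicate block, 1 gene was up in SOX9-mEGFP_budding relative to Halo-NLS, and no other count of the 10 genes moved by that much. Leaving out 1 library each gave 0 to 1 genes down in SOX9-Halo_spheroid relative to Halo-NLS, 0 to 2 up in each budding line, 3 to 6 up in SOX9-mEGFP_spheroid relative to SOX9-mEGFP_budding and 1 to 2 down between the spheroid lines. Signs changed only for values that were not called. Without 1 library, log2 fold changes in SOX9-Halo_budding relative to Halo-NLS ran from -1.14 to 3.06 for Ivl and from -0.55 to 0.21 for Sprr1a, and in SOX9-mEGFP_budding from -1.001 to 3.51 for Ivl and from -0.29 to 0.77 for Sprr1a. Between the budding lines they ran from -1.19 to 0.57 for Ivl, -0.93 to 0.27 for Sprr1a and -0.50 to 0.20 for Dsg3, between the spheroid lines from -0.75 to 0.41 for Sprr1a, in the difference between the lines from -0.37 to 0.83 for Sprr1a, and in SOX9-Halo_spheroid relative to SOX9-Halo_budding from -0.15 to 0.15 for Sfn. Sprr1a in SOX9-Halo_budding relative to Halo-NLS was 0.25 with library sizes alone and 0.0375 without a filter. With own-chromosome scaling Pkp1 was -0.0236 in SOX9-Halo_budding and Ivl -0.13 in SOX9-mEGFP_budding, and Sprr1a was 0.0189 between the spheroid lines. Low reads limit Trp63, Dsc3 and, outside the spheroids, Ivl.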
